A study of Mus musculus with 58 samples.

Results

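The genes described here encode a chosen set of H3K4 demethylases, enzymes that remove methyl groups from lysine 4 of histone H3, in mouse embryonic stem (mES) cells. The 7 members were chosen by symbol, as Kdm5a, Kdm5b, Kdm5c, Kdm1a, Kdm1b, Kdm2a and Kdm2b, out of 20177 genes with a counted 3′ untranslated region (UTR), and together they held 32 of the 46420 counted intervals. KDM5 enzymes carry a JmjC domain, use iron and 2-oxoglutarate, and act mainly on the trimethyl and dimethyl states. KDM1A (LSD1) and KDM1B (LSD2) are flavin-dependent amine oxidases that act on the dimethyl and monomethyl states, KDM1A mostly within CoREST complexes. KDM2A and KDM2B bind unmethylated CpG islands through a CXXC zinc finger, are best known for acting on H3K36, and KDM2B recruits the Polycomb complex PRC1.1.

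All cells derived from 129/Ola E14 mES cells. In the DPY30mAID line, which also expressed OsTIR1, the H3K4 methyltransferase subunit DPY30 carried an auxin-inducible degron, and in the RBBP5FKBP line the subunit RBBP5 carried a tag that dTAG-13 recruits for degradation. The line named DPY30mAID_Kdm5dKO (hereafter dKO) was the DPY30mAID line after deletion first of Kdm5a and then of Kdm5b by CRISPR and single-cell sorting, and the labels do not say which clone each library came from. SLAM-seq labels new RNA with 4-thiouridine (100 µM for 60 min), which appears as T>C changes in 3′ end reads, and it was run at 0, 2, 8 and 24 h of degradation in DPY30mAID and RBBP5FKBP (n = 3 each) and at 0, 2, 4, 8, 24 and 48 h in dKO (n = 2). Quant-seq, a 3′ end assay without labelling, followed DPY30mAID cells through differentiation with retinoic acid (RA) in DMSO at 0 h, 8 h and days 1, 2, 4 and 6, or in auxin from 8 h on (n = 2). Per the paper's methods, RA was given at 1 µM and leukaemia inhibitory factor (LIF) was left out. The effects of RA and of LIF withdrawal therefore cannot be told apart in comparisons with 0 h. The auxin arm had no 0 h group, and both DMSO day 6 libraries held the same values and were counted as 1, so that group entered no test.

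Libraries held 1721185 to 2852331 reads in RBBP5FKBP, 2013350 to 2806821 in DPY30mAID, 5931269 to 7792404 in dKO and 1264241 to 2543632 in Quant-seq. The dKO libraries were of another kind than the other SLAM-seq libraries. Their reads covered 11.2 to 11.3 T bases each against 18 to 19, a length near the 11.2 to 11.9 of Quant-seq, and 32.0 to 34.3% were multimapped against 21.8 to 25.9%. Line, clone, sequencing run and read length cannot be told apart in any comparison of dKO with another SLAM-seq line. The Quant-seq libraries of DPY30mAID had a read length near that of dKO. They differed from dKO in line, clone, labelling, DMSO and assay together. The summed level of 7 pluripotency genes was 3448 to 4847 CPM (counts-per-million, from the total reads of each library) in all 36 SLAM-seq libraries, although single genes differed between lines at 0 h. Esrrb stood at 584 to 632 CPM in DPY30mAID and 252 to 268 in dKO, Nanog at 513 to 598 and 356 to 403, and Tdgf1 at 412 to 485 and 772.5 to 796. Marker sums of other cell types also differed without overlap between dKO and DPY30mAID, at 25.2 to 29.1 against 51.8 to 57.1 CPM for neural and RA genes, 18.4 to 19.7 against 2.17 to 14.7 for primitive endoderm and 42.4 to 43.8 against 52.5 to 82.0 for trophectoderm. The part of these genes in the differences between lines was not tested. Of 5 fibroblast genes, Acta2, Col1a1 and Col1a2 reached at most 2.18 CPM at 0 h in any of the 4 groups. Twist1 stood at 9.26 to 14.2 CPM in DPY30mAID, 12.5 to 13.8 in RBBP5FKBP, 3.47 to 5.88 in dKO and 0 to 1.57 in Quant-seq, and Thy1 is given beside the comparison of the assays.

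Kdm5a (chromosome 6, 120364124 to 120444574, plus strand, GRCm38) was counted over 9 intervals, of which its terminal 3′ UTR (120439194 to 120444574) took 49.6% of its reads and 2 short internal intervals took 25.4% and 22.0%. Those internal intervals belong to transcripts annotated for nonsense-mediated decay and overlap coding sequence of other isoforms. Kdm5b (chromosome 1, 134560171 to 134635285, plus strand), Kdm5c (chromosome X, 152233020 to 152274535, plus strand), Kdm1a (chromosome 4, 136550540 to 136602723, minus strand) and Kdm1b (chromosome 13, 47043499 to 47085279, plus strand) were counted at their 3′ ends. Kdm2a (chromosome 19, 4314419 to 4398285, minus strand) was counted over 10 intervals. Kdm2b (chromosome 5, 122870665 to 122989823, minus strand) was counted over 9 intervals, all internal, and none overlapped the 3′ UTR of its principal transcript, so its counts do not measure the main Kdm2b mRNA.

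The guides used for the deletions are shown because the files count 3′ ends and not the sites that were cut. The 20-base spacers are in lower case, and the capitals mark the PAM where it could be read from the annotated transcripts.
Kdm5a guide 1: gtgaagtcaggattaccacc
Kdm5a guide 2: gtaatgacaaggttgttaca
Kdm5b guide 1: gacttttttctttaaaatac
Kdm5b guide 2: gcatctgcctgcaaacaaagAGG
Kdm5b guide 2 matched chr1:134589368-134589387 on the minus strand. This site lies in an exon of a minor transcript and within the intron between exons 4 and 5 of the principal transcript, 421 bases past exon 4 and 3942 bases before exon 5. It lies 41424 bases upstream of the counted 3′ end. The other 3 spacers had no match in the transcripts used here and were not placed. A 3′ end count outside the deleted stretch does not test the deletion itself. It measures only how much polyadenylated RNA of the locus remained.

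The first question was what remained of both deleted genes and whether any relative, meaning any of the 5 other members, was higher in their absence. At 0 h, before any degradation, Kdm5b and Kdm5a reads were both lower in dKO cells, and no relative was called higher. Of the 4 relatives other than Kdm2b, 3 were called lower in dKO than in DPY30mAID (Kdm5c, Kdm1a and Kdm2a), against a background of 17.2% of 11562 genes called lower and 20.8% called higher (edgeR quasi-likelihood test, Benjamini-Hochberg adjusted over all genes, adjusted p below 0.05).

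**Figure D1:**
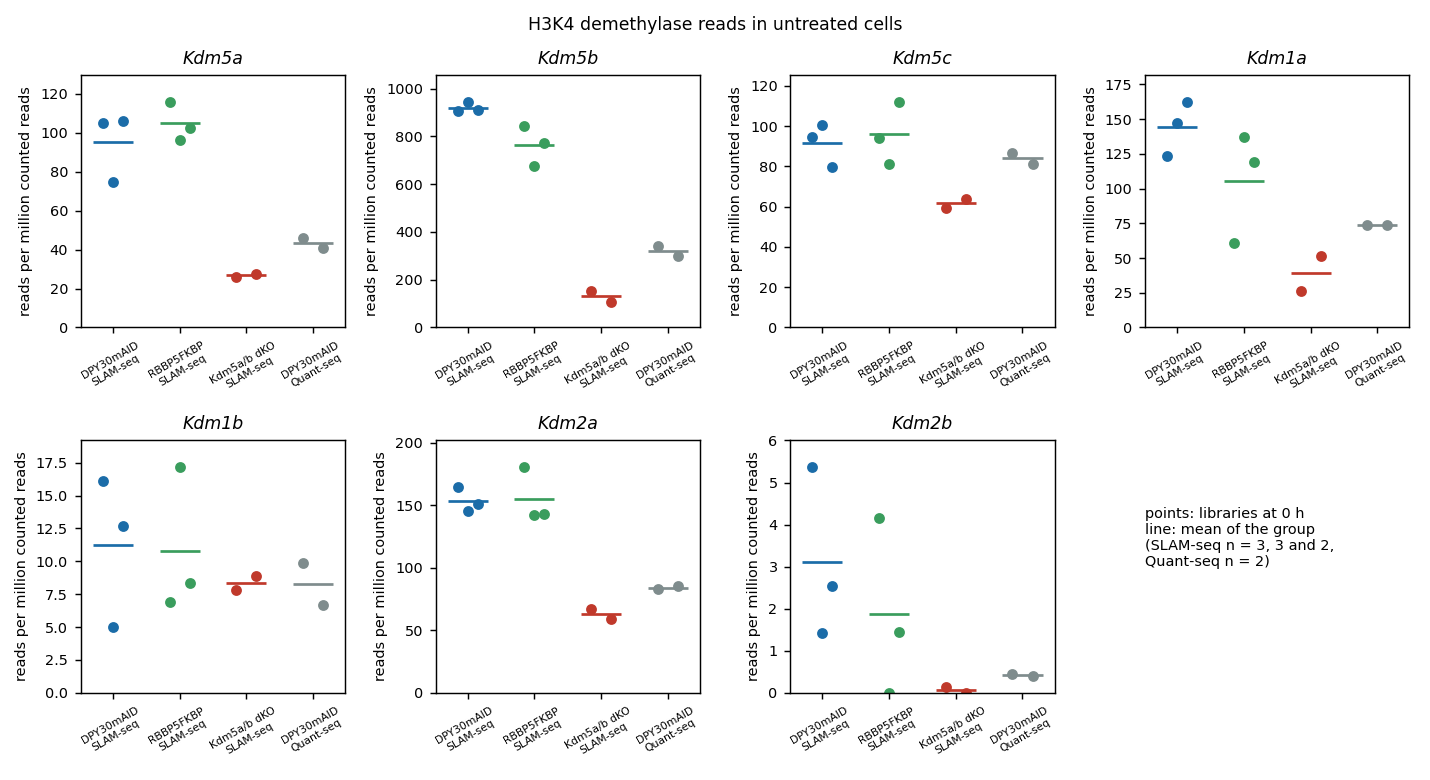
CPM at 0 h (y axis, from 0), 1 panel for each of the 7 genes, with 1 point per library for the 3 SLAM-seq lines and the Quant-seq 0 h group and a line at each group mean. Kdm5b stood at 151 and 109 in dKO, 343 and 299 in Quant-seq and 906 to 946 in SLAM-seq of DPY30mAID, and Kdm5a had the same order.

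Kdm5b was at 906, 946 and 910.3 CPM in the DPY30mAID libraries, 844, 678 and 772 in RBBP5FKBP, and 151 and 109 in dKO. The dKO libraries therefore kept 1029 and 847 reads of a deleted gene, well above the detection floor of 3 reads, and did not overlap either other line. The log2 fold change of dKO against DPY30mAID was −2.81 (SE 0.14, adjusted p = 1.15e-20). For Kdm5a, the 3 DPY30mAID libraries stood at 105, 74.5 and 106 CPM, the RBBP5FKBP libraries at 116, 96.1 and 102, and the dKO libraries at 26.0 and 27.5, which were 177 and 214 reads. Again dKO lay below both other lines, which overlapped each other (log2 fold change against DPY30mAID −1.80, SE 0.20, adjusted p = 3.09e-10). All 3 Kdm5a intervals with most reads were lower, by −2.05, −1.79 and −1.38 on the log2 scale.

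New RNA at the deleted loci was also lower. Kdm5b T>C reads numbered 527, 668 and 546 in DPY30mAID, or 28.4, 25.2 and 21.7% of its reads, where 15.3 to 16.1% of all reads carried a T>C change. In dKO they numbered 19 and 29, or 1.85 and 3.42% of Kdm5b reads, where 4.69 to 5.27% of all reads did. The Kdm5b share was thus above that of the whole library in DPY30mAID and below it in dKO. Scaled to T>C libraries, Kdm5b differed by −4.52 (SE 0.26, adjusted p = 1.22e-27) and Kdm5a by −2.59 (SE 0.54, adjusted p = 0.000105), from 53, 35 and 85 T>C reads to 7 and 11. Both held under all 17 alternatives, against a background of 10.1% of 6968 genes called lower and 8.57% higher. Scaled instead to total reads, the background became 55.1% lower and 0.789% higher.

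Kdm5c, the remaining X-linked KDM5 paralogue, differed least of the called relatives. Its level was 94.7, 101 and 79.7 CPM in DPY30mAID, 94.2, 81.3 and 112 in RBBP5FKBP and 59.6 and 64.0 in dKO. No dKO library reached the lowest of the other lines. The difference from DPY30mAID was −0.55 (SE 0.17, adjusted p = 0.00729), a call that was lost without DPY30mAID replicate 2 or without either dKO replicate. Its T>C reads (14, 18 and 32 in DPY30mAID, 21 and 23 in dKO) differed by 0.15 with a 95% interval of −0.92 to 1.23 (adjusted p = 0.889), an interval that spans both directions. Scaled to total reads instead, the same reads differed by −1.43 (adjusted p = 0.034).

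Kdm1a, the catalytic subunit of CoREST, spread widely between replicates. It was at 124, 148 and 163 CPM in DPY30mAID, at 60.5, 137 and 119.5 in RBBP5FKBP and at 26.3 and 51.6 in dKO. The dKO libraries lay below all others, and the difference from DPY30mAID was −1.86 (SE 0.33, adjusted p = 9.79e-06). Kdm1a T>C reads were also lower (39, 113 and 71 against 20 and 22, difference −1.70, SE 0.46, adjusted p = 0.00446), a call lost without DPY30mAID replicate 2 or without either dKO replicate. Its paralogue Kdm1b had few reads, 33, 14 and 35 in DPY30mAID and 53 and 69 in the deeper dKO libraries. In CPM these groups overlapped (16.1, 4.99 and 12.7 against 7.80 and 8.86), with a difference of −0.39 and a 95% interval of −1.30 to 0.52 (adjusted p = 0.532).

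Kdm2a, the CpG-island-binding JmjC enzyme, was at 164.5, 145 and 151 CPM in DPY30mAID, 181, 142 and 143 in RBBP5FKBP and 66.6 and 59.2 in dKO. Both dKO libraries lay below all others, while DPY30mAID and RBBP5FKBP overlapped, and the difference of dKO from DPY30mAID was −1.27 (SE 0.16, adjusted p = 8.75e-09). Kdm2a T>C reads numbered 90, 96 and 99 against 54 and 43, with a difference of −0.87 that missed the threshold (SE 0.34, adjusted p = 0.0638). Kdm2b gave 11, 4 and 7 reads in DPY30mAID, 9, 0 and 4 in RBBP5FKBP and 1 and 0 in dKO. It was called lower (adjusted p = 0.00489, lost without dKO replicate 2), but it passed the filter on low counts only through the lines where it was higher, and no fold is given because the dKO libraries lay below the floor of 3 reads.

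**Figure D2:**
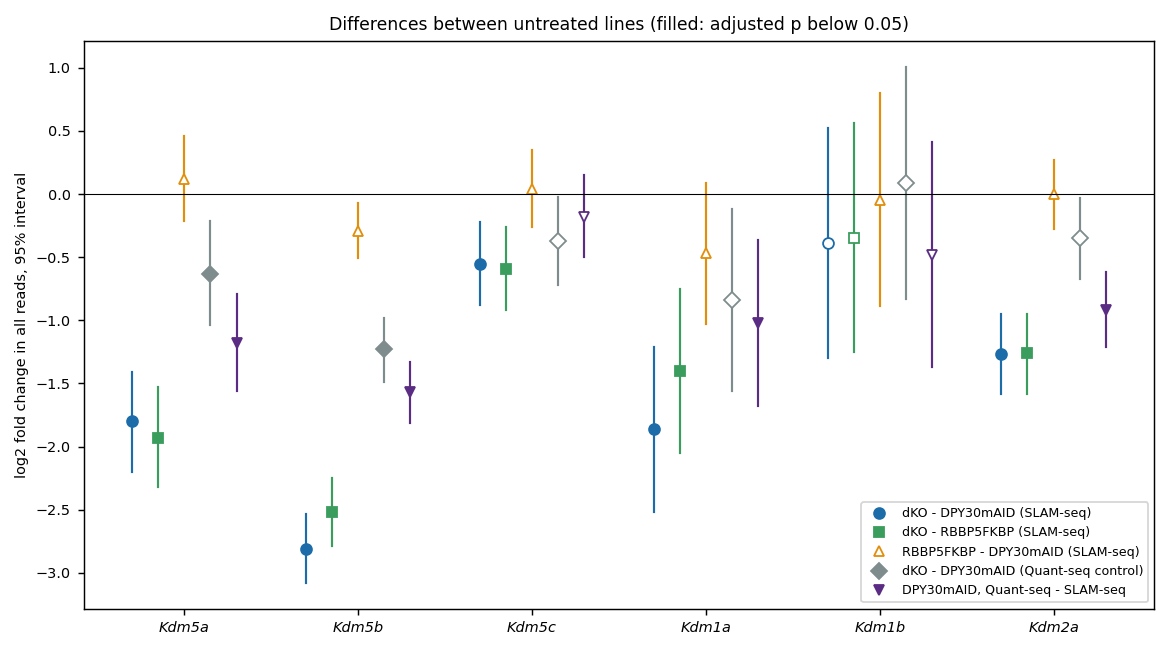
Log2 fold changes at 0 h with 95% intervals (y axis) for 6 genes, for dKO against each SLAM-seq line and against the Quant-seq 0 h libraries of DPY30mAID, for RBBP5FKBP against DPY30mAID, and for Quant-seq against SLAM-seq of DPY30mAID. Filled symbols passed the adjusted threshold. For Kdm5b dKO lay below its control in each comparison, from −2.81 to −1.23, and the relatives lay nearer to 0 with the Quant-seq control.

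Set against RBBP5FKBP, which shares the dKO libraries with the comparison above, the relatives gave −0.59 for Kdm5c (adjusted p = 0.0031), −1.40 for Kdm1a (adjusted p = 0.000429), −1.26 for Kdm2a and −0.35 for Kdm1b (adjusted p = 0.56). As before, 3 of the 4 relatives other than Kdm2b were called lower and 0 higher, where 19.8% of all genes were lower and 25.4% higher. The Kdm5c call was lost in both comparisons without either dKO replicate. Kdm2b was called lower here too, on the counts given above, and that call was lost without either dKO replicate or RBBP5FKBP replicate 1. No relative was higher at an unadjusted p below 0.05 or by DESeq2 in either. Between RBBP5FKBP and DPY30mAID, with both KDM5 genes intact in both lines, edgeR over whole genes called 0 members in either direction while 10.5% of genes were lower and 9.18% higher. There, Kdm5b was lower at an unadjusted p below 0.05 and by DESeq2. In the edgeR fit by interval its single interval was called lower (−0.31, SE 0.11, adjusted p = 0.0473).

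The calls of lower relatives depended on which libraries were the control. The Quant-seq 0 h libraries are the same DPY30mAID line, with both genes intact and with T bases per read near those of dKO. Against them Kdm5b was still lower in dKO (343 and 299 CPM against 151 and 109, difference −1.23, SE 0.13, adjusted p = 2.49e-11) and held under all 15 alternatives. Kdm5a was lower by −0.63 (46.1 and 40.9 CPM against 26.0 and 27.5, SE 0.21, adjusted p = 0.0178), but the call was lost when its interval with most reads was taken alone, without Quant-seq replicate 1 and without either dKO replicate. By interval, the internal interval with 22.0% of reads differed by −1.16 (adjusted p = 0.0284) and the others by −0.32 and −0.30.

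None of the relatives was called against this control in either direction by edgeR or by DESeq2, where 14.1% of 12207 genes were lower and 14.5% higher. At an unadjusted p below 0.05, 3 were lower and 0 higher. Kdm5c stood at 86.9 and 81.4 CPM, with a difference of −0.37 (95% interval −0.72 to −0.02, adjusted p = 0.102). Kdm1a stood at 73.9 in both libraries, with a difference of −0.84 (−1.56 to −0.12, adjusted p = 0.0715), and Kdm2a at 82.9 and 85.3, with a difference of −0.35 (−0.67 to −0.03, adjusted p = 0.0949). All 3 intervals lay below 0, so a higher level in dKO was not measured for any of them. For Kdm1b, with 22 and 17 Quant-seq reads, the interval of −0.83 to 1.01 spans both directions.

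The same line was also measured by both assays, in libraries that differ in labelling, DMSO, assay, read length and share of multimapped reads together. Reads covered 11.58 and 11.54 T bases in the Quant-seq 0 h libraries and 18.8, 19.01 and 18.9 in the SLAM-seq 0 h libraries. Multimapped reads made up 29.99 and 29.89% in Quant-seq and 23.28, 23.25 and 22.8% in SLAM-seq. The part of each factor was not tested. Quant-seq 0 h against SLAM-seq 0 h of DPY30mAID, Kdm5b was lower by −1.57, Kdm5a by −1.18, Kdm1a by −1.02 and Kdm2a by −0.92, all called, where 16.2% of genes were lower and 18.5% higher. Kdm5c (−0.18) and Kdm1b (−0.48) were not called, and the Kdm1a call was lost without either Quant-seq replicate and in the fit with a replicate block. The fibroblast marker Thy1 also moved with the kind of library and line, at 0.98 to 1.81 CPM in DPY30mAID SLAM-seq, 18.4 to 22.5 in dKO and 35.0 to 44.4 in Quant-seq, and its part in these differences was not tested.

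Genes of other JmjC proteins, and of complexes that hold demethylases, moved both ways at 0 h. Among 20 other JmjC proteins, 3 were lower and 3 higher of 17 tested in dKO against DPY30mAID, shares near those of all genes (17.2% lower and 20.8% higher), with a median of −0.20 where that of all genes was 0.14. Jarid2, a JmjC protein without demethylase activity that joins PRC2, was lower (−1.78) and so was the H3K27 demethylase Kdm6b (−1.11), while the H3K9 and H3K36 demethylases Kdm4c (1.43) and Kdm4a (1.14) were higher. Of the CoREST partners of KDM1A, 0 were lower and 3 higher of 11 tested (median 0.25), namely Phf21a (1.33), Zmym3 (0.92) and Zmym2 (0.75). Against the Quant-seq control the CoREST count turned to 3 lower and 1 higher (median −0.25, with 14.1% of all genes lower and 14.5% higher), with Phf21a at −0.72, whereas Kdm4c was higher against both (2.64 with Quant-seq).

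Of the 9 PRC1.1 genes, 1 was lower, the deubiquitinase Usp7 (−0.99), and 0 were higher (median 0.16), where 17.2% of all genes were lower and 20.8% higher. Against the Quant-seq control PRC1.1 gave 1 lower and 3 higher (median 0.28, all genes 14.1% lower and 14.5% higher), and against RBBP5FKBP 3 lower and 2 higher (all genes 19.8% lower and 25.4% higher). The SIN3B list was drawn up for a SIN3B complex that holds KDM5A, but it also holds the paralogue Sin3a. Of its 6 genes, 3 were lower and 1 higher (median −0.49). These were Phf12 (−1.26), the corepressor Sin3a (−1.08) and the chromodomain gene Morf4l1 (−1.0), and the transcriptional regulator Emsy (0.88). Dpy30 itself was lower in dKO by −1.23 (adjusted p = 0.000327).

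The second question was how the demethylase genes behaved once H3K4 methylation was being lost. Loss of DPY30 for 24 h lowered 5 members in total reads, and 3 of them were relatives of the deleted pair, where 17.1% of 9848 genes were lower and 15.9% higher. Kdm5b fell most, from 906, 946 and 910.3 CPM at 0 h to 546, 477 and 389.5 at 24 h. All 3 libraries at 24 h lay below all 3 at 0 h (log2 fold change −0.98, SE 0.10, adjusted p = 1e-11). The call held under all 11 alternative fits, but it did not pass a log2 fold change beyond 1. The summed level of 5 neural and RA marker genes moved with this comparison, from 51.8 to 57.1 CPM in the 0 h libraries down to 21.8 to 29.5 at 24 h, and its part in the changes was not tested.

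**Figure D3:**
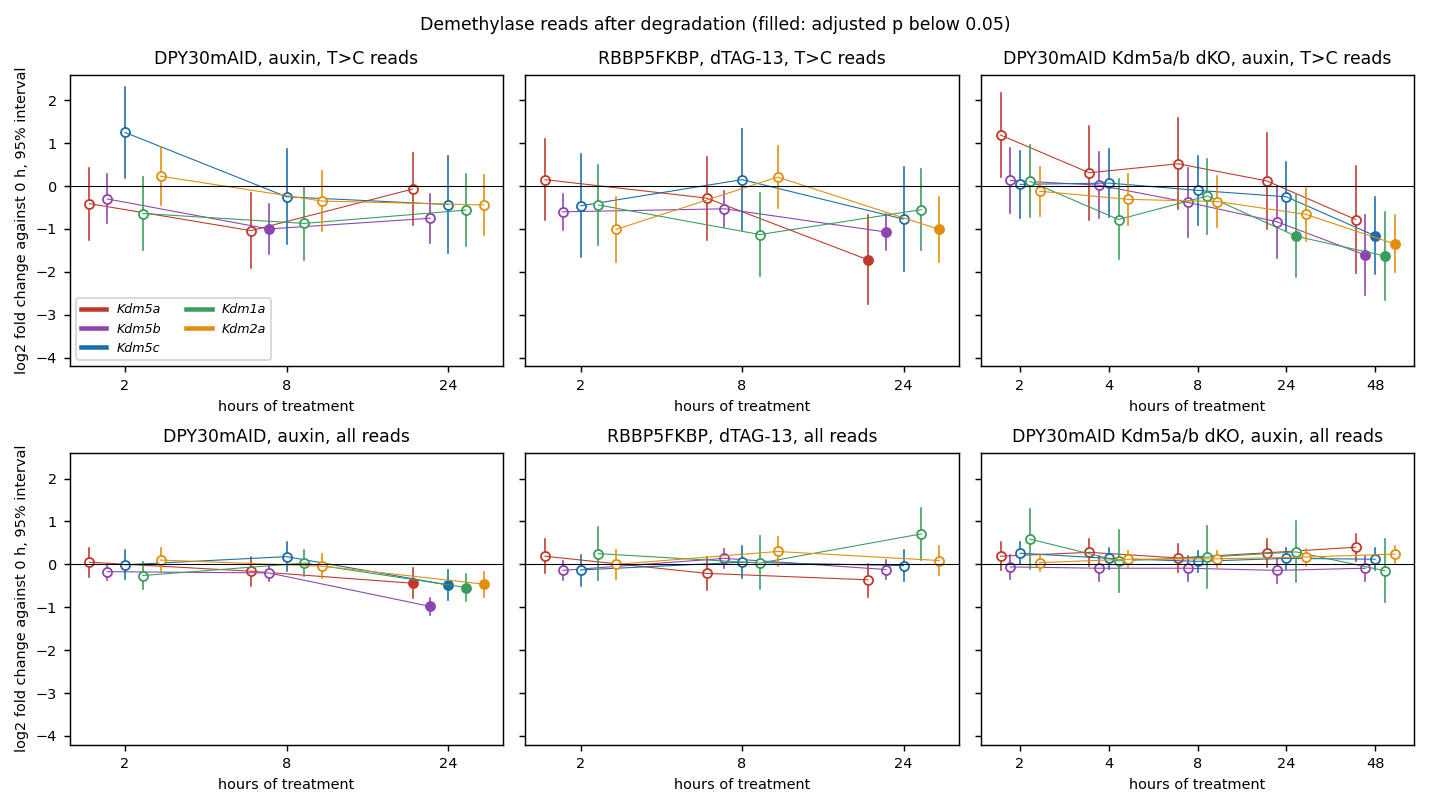
Log2 fold change from 0 h with its 95% interval (y axis) at each time of degradation (x axis, evenly spaced) for 5 genes in the 3 SLAM-seq lines, T>C reads above and all reads below. Filled points passed the adjusted threshold. In all reads these were the 5 genes at 24 h in DPY30mAID, led by Kdm5b at −0.98, and none in the other lines.

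The 4 other called members changed less. Kdm1a was at 101, 96.5 and 103 CPM at 24 h, all below its 0 h libraries (−0.54, SE 0.15, adjusted p = 0.00493, lost without replicate 2). Kdm2a was at 106, 123 and 108 CPM, also below all at 0 h (−0.46, SE 0.15, adjusted p = 0.0106, lost without replicate 1). For both genes the libraries of 24 h and 0 h did not overlap. Kdm5a (70.2, 61.1 and 79.5 CPM) and Kdm5c (75.8, 71.3 and 52.5 CPM) gave −0.44 (SE 0.17, adjusted p = 0.0433) and −0.48 (SE 0.17, adjusted p = 0.0284). Both calls were lost without any 1 of the 3 replicates, and Kdm5a overlapped its 0 h libraries, the lowest of which was 74.5 CPM. Kdm1b had a difference of −0.70 (SE 0.52, adjusted p = 0.318).

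Earlier times gave no called member in total reads by edgeR or DESeq2. At 2 h 0.0305% of genes were lower and 0.0% higher, with 0 members at an unadjusted p below 0.05. At 8 h 7.61% of genes were lower and 5.38% higher, and only Kdm5b was lower at that unadjusted level (−0.2). Without composition scaling the 8 h split was 5.17% lower and 7.88% higher.

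New RNA of Kdm5b was called lower earlier, at 8 h of DPY30 loss. Its T>C reads numbered 424, 242 and 163 at 8 h against 527, 668 and 546 at 0 h, so that all 3 libraries at 8 h lay below all 3 at 0 h. The difference was −1.0 (SE 0.29, adjusted p = 0.0137) with total-read scaling, where the median of all genes was −0.71, 16.1% of 6317 genes were lower and 0.158% higher. The call was lost without replicate 2 and when T>C libraries were used for scaling, which moved that background to 4.54% lower and 1.04% higher. The share of T>C reads ranged from 5.51 to 13% between the 8 h libraries against 15.3 to 16.1% at 0 h. Kdm5a differed by −1.04 (adjusted p = 0.0887), Kdm1a by −0.87, Kdm2a by −0.35 and Kdm5c by −0.25, none of them called by edgeR. DESeq2 called Kdm5a as well (adjusted p = 0.0483). Marker sums had moved by 8 h too, with the neural and RA genes at 25.6 to 29.6 CPM against 51.8 to 57.1 at 0 h and the pluripotency genes at 3865 to 3999 against 4204 to 4542, and their part was not tested.

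In T>C reads no member was called by edgeR or DESeq2 at 2 or 24 h in DPY30mAID. The backgrounds were 0.0% in both directions at 2 h, and 2.79% lower and 0.823% higher at 24 h. At an unadjusted p below 0.05, 1 member was higher at 2 h and 1 lower at 24 h.

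Loss of RBBP5 gave no called member in total reads. This held for edgeR and DESeq2 at 2, 8 and 24 h, and at an unadjusted p below 0.05 only Kdm1a at 24 h was higher. Of 9676 genes, 0.0% were called in either direction at 2 h. The shares were 5.12% lower and 4.13% higher at 8 h, then 4.49% and 2.99% at 24 h. Kdm5b was at 728, 732 and 705 CPM at 24 h, within its range of 678 to 844 at 0 h. Kdm1a was at 195, 173 and 163 CPM, above its 3 libraries at 0 h, with a difference of 0.71 (adjusted p = 0.147). That difference was called without replicate 2, when only these groups entered the fit, and without a filter. The summed level of the pluripotency genes moved in this line too. It was 3448 to 3675 CPM at 0 h, 3734 to 3758 at 2 h, 4182 to 4253 at 8 h and 3893 to 4094 at 24 h, and its part was not tested.

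In T>C reads of the same libraries, whose pluripotency sums are given above, 3 members were by contrast called lower at 24 h of RBBP5 loss. Kdm5b numbered 286, 305 and 368 T>C reads at 0 h and 151, 127 and 115 at 24 h, with no overlap (−1.07, SE 0.21, adjusted p = 0.00011). Kdm5a went from 44, 34 and 35 to 17, 3 and 10 T>C reads (−1.72, SE 0.52, adjusted p = 0.0105), a call lost without replicate 2. Kdm2a numbered 54, 19 and 17 at 24 h (−1.01, SE 0.38, adjusted p = 0.0398), lost without any 1 replicate. The background had a median of −0.91, with 25.9% of 4761 genes lower and 0.189% higher, and scaling to T>C libraries took it to 2.48% and 0.378% and left none of the 3 calls. No member was called at 2 h (0.252% of genes lower) or 8 h (7.71% lower) by edgeR. At an unadjusted p below 0.05, 2 members were lower at each of these times, of which DESeq2 called 1.

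In dKO cells no member was called in total reads at any time of DPY30 loss. The remaining Kdm5b reads were at 120.4 and 125 CPM at 24 h and 143 and 115 at 48 h, between the 151 and 109 of 0 h. Kdm5c was at 59.6 and 64.0 CPM at 0 h, 72.2 and 69.9 at 24 h and 72.1 and 71.0 at 48 h, higher at the later times in each library but not called. Kdm2a was at 70.8 and 76.6 CPM at 24 h and 83.1 and 74.4 at 48 h, above its 0 h libraries in each (0.24 at 48 h, adjusted p = 0.0962). At 48 h, 2 members were higher at an unadjusted p below 0.05, Kdm2a and Kdm5a (0.40, adjusted p = 0.0881), and DESeq2 called 0 at each time. At 2 h, 1 member was higher at that unadjusted level, and 0 were at 4, 8 and 24 h. The backgrounds were 0.0% in both directions at 2 and 4 h, 0.456% lower and 0.316% higher at 8 h, and 6.44% and 5.05% at 24 h. The background at 48 h was 7.84% of 11394 genes lower and 6.72% higher, or 5.11% and 10.7% without composition scaling, under which 2 members were called higher.

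T>C reads in dKO fell late. At 24 h only Kdm1a was called (20 and 22 reads at 0 h, 6 and 12 at 24 h, −1.17, SE 0.49, adjusted p = 0.0452), where 43.0% of 5965 genes were lower and 0.151% higher, or 3.72% and 2.21% with T>C scaling. That call was lost by DESeq2 and without either 0 h replicate or 24 h replicate 1. At 2, 4 and 8 h 0 members were called by edgeR or DESeq2, with 1 higher at 2 h at an unadjusted p below 0.05. The backgrounds were 0.0% in both directions at 2 h, 0.587% lower and 0.0% higher at 4 h, and 1.54% and 0.0168% at 8 h. At 48 h, 4 members were lower, against 72.2% of genes lower and 0.134% higher. The trophectoderm sum was 76.5 to 82.8 CPM in these libraries against 42.4 to 43.8 at 0 h, and its part was not tested. Kdm2a went from 54 and 43 to 16 and 21 reads (−1.35, adjusted p = 0.00033), Kdm1a to 3 and 10 (−1.63, adjusted p = 0.0045), Kdm5b from 19 and 29 to 7 and 8 (−1.61, adjusted p = 0.00199) and Kdm5c from 21 and 23 to 10 and 9 (−1.16, adjusted p = 0.0195). These falls were near the median of all genes, −1.29, and scaling to T>C libraries left 0 calls and a background of 5.05% lower and 2.51% higher. The Kdm1a call at 48 h was lost without replicate 1 of that time, and the Kdm5c call without any 1 of the 4 libraries compared.

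Whether the fall of a member at 24 h depended on KDM5A and KDM5B was asked by the difference between lines in their total-read change. The Kdm5b change was higher in dKO than in DPY30mAID by 0.84 (SE 0.18, adjusted p = 0.00118), where 4.46% of genes had a lower and 4.96% a higher change. This compares the reads left at a deleted locus with those of an intact gene, and it was lost without dKO replicate 2. The relatives had differences of 0.62 for Kdm5c (adjusted p = 0.0886), 0.63 for Kdm2a (adjusted p = 0.0559) and 0.84 for Kdm1a (adjusted p = 0.26), none of them called by edgeR over whole genes. Taken alone, the Kdm2a interval with most reads was called, at 0.78 (SE 0.23, adjusted p = 0.0316). DESeq2 called 2 of these relatives, and 2 were higher at an unadjusted p below 0.05.

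The same difference with RBBP5FKBP in place of dKO, which shares the DPY30mAID libraries, gave 3 calls with both KDM5 genes intact. They were 0.86 for Kdm5b (SE 0.16, adjusted p = 8.7e-05), 1.25 for Kdm1a (SE 0.39, adjusted p = 0.0239) and 0.55 for Kdm2a (SE 0.20, adjusted p = 0.0444), where 7.76% of genes were lower and 8.59% higher. The Kdm5b difference held under all 15 alternatives. That of Kdm1a was lost by DESeq2 and without any 1 DPY30mAID replicate or RBBP5FKBP replicate 1, and that of Kdm2a without DPY30mAID replicate 1 or 3, RBBP5FKBP replicate 2 or 3, or either dKO replicate. In T>C reads no member had a called difference between dKO and DPY30mAID at 2, 8 or 24 h by edgeR or DESeq2. At an unadjusted p below 0.05, 1 member was higher at 2 h, the same number at 8 h and 0 at 24 h. The backgrounds were 0.0% in both directions at 2 h, 0.0% lower and 0.244% higher at 8 h, and 1.35% lower and 0.0% higher at 24 h.

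Genes of the same lists moved both ways with DPY30 loss, and for CoREST the share called was near the 17.1% lower of all genes. At 24 h in total reads 6 of 15 tested JmjC genes were lower and 1 higher (median −0.33, all genes 0.01), led by Jarid2 (−1.57, SE 0.08), Kdm6b (−0.72) and the ribosomal oxygenase Riox2 (−0.71), with Kdm4c higher (1.61, SE 0.48). Of 11 CoREST genes 2 were lower, the scaffolds Rcor2 (−1.45, SE 0.14) and Rcor1 (−0.94, SE 0.20), although the list's median was 0.20. Of 7 PRC1.1 genes 4 were lower and 1 higher (median −0.58), the lower ones being Bcor (−1.37), Rybp (−1.02), Usp7 (−0.82) and the E3 ligase Rnf2 (−0.55). Of 6 SIN3B genes 3 were lower, Phf12 (−1.01), Sin3a (−0.76) and Gatad1 (−0.53), and Sin3b was higher (0.57). In RBBP5FKBP at 24 h, where 4.49% of all genes were lower and 2.99% higher, 1 of 16 JmjC genes was lower and 0 were higher, 0 of 11 CoREST genes were lower and 3 higher, and 0 of 7 PRC1.1 and 0 of 6 SIN3B genes were called. The tagged gene Dpy30 was itself lower at 24 h in DPY30mAID (−0.82, adjusted p = 0.000343).

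The third question was how the members changed through RA differentiation with H3K4 methylation intact. Fewer cells of a type and less RNA per cell cannot be told apart in these bulk samples, and the summed level of the pluripotency genes went from 4956 and 5191 CPM at 0 h to 1880 and 1907 at day 4 in DMSO. Over the same time primitive endoderm genes went from 4.03 and 7.47 CPM to 479 and 484. Neural and RA genes went from 20.05 and 28.2 to 245 and 259, and trophectoderm genes from 30.5 and 45.2 to 168.5 and 177. The fibroblast sum overlapped between these times. The part of these markers in the member changes was not tested. Of 6 members tested (Kdm2b had 0 to 4 reads per library), 1 was lower at 8 h, 3 at day 1, 3 at day 2 and 2 at day 4, where 9.4, 23.9, 22.6 and 26.5% of 11415 genes were lower. Higher were 0 at 8 h, 0 at day 1, 1 at day 2 and 1 at day 4, where 8.94, 27.9, 25.4 and 27.8% of genes were higher. All 4 comparisons share the 0 h libraries. Without composition scaling the day 4 background was 20.3% lower and 33.6% higher.

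**Figure D4:**
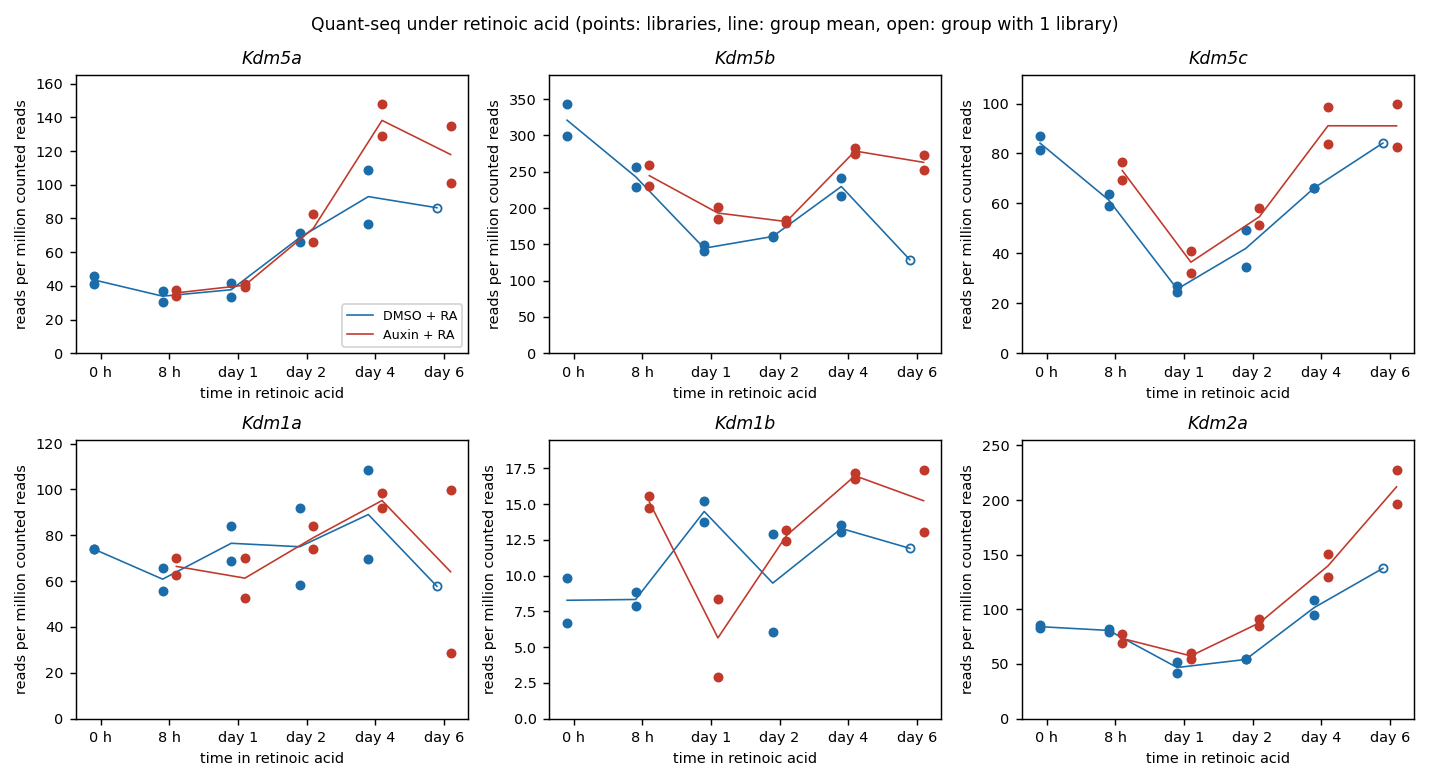
CPM (y axis) of 6 genes in Quant-seq libraries of DPY30mAID cells at 0 h, 8 h and days 1, 2, 4 and 6 of RA (x axis), in DMSO and in auxin, with 1 point per library and lines through the means. Kdm5c reached its lowest level at day 1 (24.4 and 27.0 in DMSO), and Kdm2a reached its highest in auxin at day 6 (196.5 and 228).

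Kdm5c fell deepest. Its level in DMSO was 86.9 and 81.4 CPM at 0 h, 59.0 and 63.8 at 8 h, 24.4 and 27.0 at day 1, 34.5 and 49.4 at day 2, 66.2 in both libraries at day 4 and 84.2 in the library of day 6. It thus had its lowest level at day 1 and stood near its starting level by day 6, the latter with no test. The changes from 0 h were −1.70 at day 1 (SE 0.19, adjusted p = 3.75e-08), −1.07 at day 2 (adjusted p = 1.2e-05) and −0.52 at day 4 (adjusted p = 0.00773). The day 4 call was lost by DESeq2, without composition scaling and without 0 h replicate 1.

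Kdm5b was at 343 and 299 CPM at 0 h, 256.5 and 229.6 at 8 h, 140.5 and 149 at day 1, 161 and 160.4 at day 2, 217 and 242 at day 4 and 129 at day 6. No library after 0 h reached either 0 h library. The changes were −0.34 at 8 h (adjusted p = 0.0252, lost by DESeq2 and without 0 h replicate 1 or 8 h replicate 2), −1.14 at day 1 (adjusted p = 4.55e-09), −1.07 at day 2 and −0.66 at day 4 (adjusted p = 9.89e-06). Kdm2a fell for a shorter time. It stood at 82.9 and 85.3 CPM at 0 h, 52.1 and 41.3 at day 1, 54.1 in both libraries at day 2, 95.1 and 108 at day 4 and 137.5 at day 6, with changes of −0.84 at day 1 (adjusted p = 6.9e-05), −0.71 at day 2 and 0.09 at day 4.

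Kdm5a was the only member called higher than at 0 h in DMSO. It stood at 46.1 and 40.9 CPM at 0 h, 41.8 and 33.6 at day 1, 71.6 and 65.7 at day 2 and 109 and 76.9 at day 4. Both libraries of day 2 and of day 4 lay above both of 0 h. The change was 0.58 at day 2 (SE 0.18, adjusted p = 0.0104, lost without 0 h replicate 2 or day 2 replicate 1) and 0.92 at day 4 (SE 0.18, adjusted p = 8.93e-05). At day 4 the terminal 3′ UTR gave 0.98 (adjusted p = 0.00417) and the internal intervals 1.15 (adjusted p = 0.00338) and 0.56 (adjusted p = 0.119). Kdm1a was not called at any time, with changes of −0.23, 0.06, −0.06 and 0.09, nor was Kdm1b. At day 1 Kdm1b stood at 15.2 and 13.8 CPM against 9.86 and 6.68 at 0 h, with no overlap (0.83, 95% interval 0.10 to 1.55, adjusted p = 0.0514).

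The same lists changed both ways at day 1, where 23.9% of all genes were lower and 27.9% higher, and the CoREST and PRC1.1 counts lay near or below those shares. Of 15 JmjC genes 7 were lower and 3 higher (median −0.44, all genes 0.10), with Jarid2 (−1.63), Kdm6b (−1.08) and Kdm4b (−0.91) lower and Kdm4c higher (1.71). CoREST had 3 lower and 2 higher of 11, with Rcor2 (−2.41) and Gse1 (−1.52) lower and Zmym3 (1.02) and Hdac1 (0.84) higher. PRC1.1 had 2 lower, Usp7 (−1.58) and Bcorl1 (−0.86), and 1 higher, Yaf2 (3.16), and SIN3B had 2 lower, Sin3a (−1.57) and Phf12 (−1.12), and 1 higher, Sin3b (0.69). At day 4 PRC1.1 had 2 lower and 4 higher (median 0.22, all genes 0.04, of which 26.5% were lower and 27.8% higher), with Yaf2 (3.35), Ring1 (1.48) and Bcor (0.84) higher and Usp7 (−1.01) lower.

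The fourth question was whether loss of DPY30 changed the course of the members during RA treatment. At 8 h 0 members were called by edgeR or DESeq2 (0.736% of genes lower, 0.0526% higher), with 1 higher at an unadjusted p below 0.05. At day 1 Kdm5b was higher in auxin, at 201.5 and 185 CPM against 140.5 and 149 in DMSO, with no overlap (0.43, SE 0.12, adjusted p = 0.0254, 3.49% of genes lower and 3.52% higher). This call was lost without any 1 of the 4 day 1 libraries. Kdm1b was lower at day 1 on 5 and 13 reads against 28 and 25 (−1.37, SE 0.41, adjusted p = 0.0414), and that call was lost in 14 of 28 alternatives, among them without auxin day 1 replicate 1 and without either DMSO day 1 replicate. Both values of auxin Kdm1b lay below both of DMSO.

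At day 2 Kdm2a was higher in auxin, at 84.4 and 90.9 CPM against 54.1 in both DMSO libraries (0.59, SE 0.15, adjusted p = 0.0111, 8.09% of genes lower and 5.32% higher, or 5.66% and 7.89% without composition scaling). The call was lost without auxin replicate 2 or either DMSO replicate of day 2. It also rested on where in the gene the reads lay. The 3′ UTR interval with most reads (chr19:4314419-4319099, 89.3% of Kdm2a reads, 0.062% of them mapping to several places) differed by 0.22 (adjusted p = 0.513). An internal interval (chr19:4388410-4388552) with 9.84% of the reads, of which 98.5% mapped to several places, was at 27.1 and 28.7 CPM in auxin and 9.27 and 2.80 in DMSO (2.12, SE 0.39, adjusted p = 0.000571). Reads shared between places cannot be assigned to Kdm2a with certainty.

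**Figure D5:**
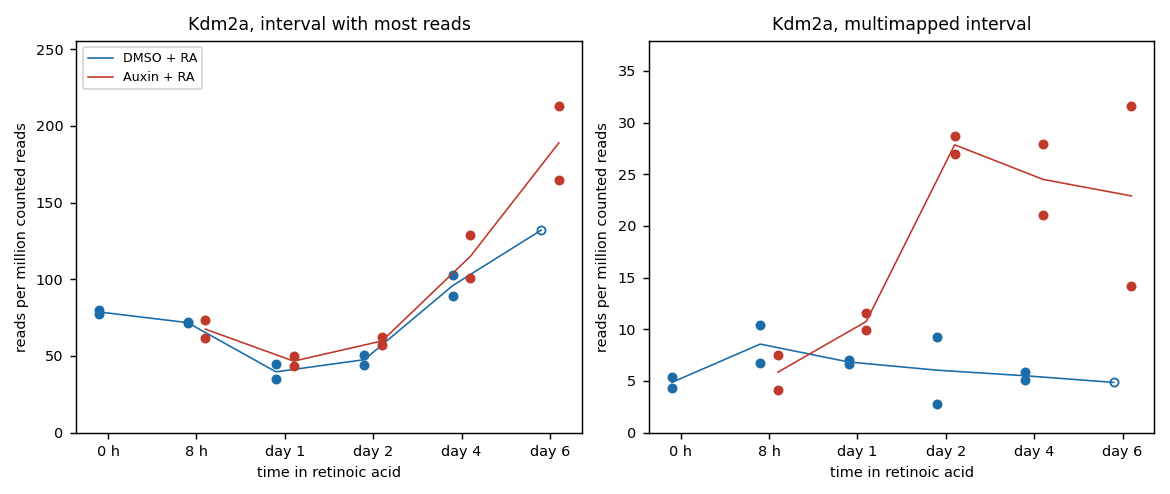
CPM (y axis) in the Kdm2a interval with most reads and in the internal interval of multimapped reads, by time of RA (x axis), in DMSO and auxin, with 1 point per library, lines through the means and a separate y scale in each panel. The arms separated at day 2 in the internal interval (27.1 and 28.7 against 9.27 and 2.80) more than in the other.

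At day 4 the internal interval again differed (21.1 and 27.9 CPM against 5.86 and 5.13, 1.93, SE 0.40, adjusted p = 0.00117) and the main one did not (0.04). Over whole genes edgeR and DESeq2 called 0 members at day 4, where 11.5% of genes were lower and 7.04% higher, or 5.9% and 14.3% without composition scaling. Kdm5a was higher at an unadjusted p below 0.05 at day 4, at 148 and 129 CPM in auxin against 109 and 76.9 in DMSO (0.36, adjusted p = 0.129). From day 4 to day 6 in auxin Kdm2a rose from 150.2 and 129 to 196.5 and 228 CPM (0.60, SE 0.13, adjusted p = 0.00438, 4.55% of genes lower and 6.14% higher), with no overlap. This rise lay in the interval with most reads (0.72, adjusted p = 0.00466) and was lost without auxin day 4 replicate 2. At day 6, with 1 DMSO library and so no test, Kdm5b was at 253 and 273 CPM in auxin against 129 in DMSO, and Kdm5a at 135 and 101 against 86.4.

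Markers of other cell types moved with the arms. At day 1 the summed level of 5 neural and RA genes was 140 to 147 CPM in auxin against 110 to 116 in DMSO, and that of the pluripotency genes 2813 to 2822 against 3086 to 3231. At day 2 both of these sums overlapped between the arms, but 5 fibroblast genes summed to 24.3 to 35.9 CPM in auxin against 11.7 to 21.6 in DMSO, and 5 trophectoderm genes to 86.1 to 93.1 against 93.7 to 96.0. At day 4 the fibroblast sum was 50.4 to 55.8 against 25.2 to 36.9. At day 4 the neural and RA sum was 488 to 504 CPM in auxin against 245 to 259 in DMSO, that of 5 primitive endoderm genes was 298 to 306.5 against 479 to 484, and that of the pluripotency genes was 1461 to 1518 against 1880 to 1907. In auxin, sums also moved without overlap from day 4 to day 6. At day 6 pluripotency genes stood at 1145 to 1260 CPM and neural and RA genes at 415 to 435. Trophectoderm genes stood at 155 to 158 at day 4 and 193 to 221 at day 6, and fibroblast genes at 68.0 to 76.3 at day 6. The primitive endoderm sum overlapped between these days. The part of the markers in the values of the members was not tested.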

How the data were processed

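SLAM-seq (36 libraries) and Quant-seq (21 used of 58 libraries deposited in all) were analysed as deposited by the authors, per 3′ UTR interval of GENCODE vM14 on mm10 (GRCm38), as counts of reads, of T>C reads and of multimapped reads. The deposited CPM were not used. Per the file headers slamdunk 0.3.4 made the tables. The submitters' processing notes also name HISAT2 2.2.1 and featureCounts, and the methods' filter on conversions for new RNA was not repeated. T>C reads averaged at most 1.32 conversions per library, so the T>C counts here include reads with a single conversion, and 0.303 to 0.388% of unlabelled Quant-seq reads counted as T>C. Intervals were summed per gene. CPM printed here were computed from the total counted reads of each library.

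Genes that averaged 10 or more reads in any group were tested with edgeR 4.0.16 (quasi-likelihood, TMM, R 4.3.3), with Benjamini-Hochberg adjustment over all genes tested and a threshold of 0.05. Each SLAM-seq line and Quant-seq had their own fit. Comparisons between lines, 0 h included, used 1 fit of all 36 SLAM-seq libraries, with the filter over all their groups, and those between assays 1 fit of all 57 libraries. T>C reads were scaled by total reads within a line and by T>C reads between lines at 0 h. The scripts were tested on simulated data. DESeq2 1.42.0 and other settings were alternatives, and tables were joined with pandas 2.3.3 (Python 3.11.15).

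All members that passed the filter were tested in each comparison, but those not called by edgeR were not always named. Of 4 lists of other genes, at most 4 that passed the threshold were named. The members and lists were chosen with earlier results of these data known. The comparisons with Quant-seq as a control and between lines in total reads were added after the data were seen. The paper calls the SLAM-seq replicates biological, but no label ties libraries to separate cultures or clones, so p-values measure the spread between libraries, which may be technical. Intervals and floors of 3 reads cover counting and replicate spread only. Same-numbered replicates did not deviate together (mean correlation −0.007 to 0.048 by fit), so replicates were not paired.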

Additional observations from a re-analysis of the deposited data

Results flagged for a closer look

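The change at 24 h of degradation differed between lines, by the test of the difference itself, for 3 members in total reads. The Kdm5b change was higher by 0.84 in dKO than in DPY30mAID (log2 scale), and by 0.86 in RBBP5FKBP than in DPY30mAID. For Kdm1a the RBBP5FKBP change was higher by 1.25, and for Kdm2a by 0.55. The Kdm5b difference with RBBP5FKBP held under all alternatives run, and each of the others was lost without single replicates, as given in the Results. All 4 differences share the DPY30mAID libraries, and lines, degrons and ligands differ together.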

How the results depend on the processing

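Of 222 member results tested in the comparisons of the design, which leave out the Quant-seq control and the line differences in total reads, 44 were called. Of these, 19 were called with the same sign under every alternative run, 25 lost the call under at least 1, and 19 others were called only under an alternative. The causes were not tested. Kdm5c changed sign under scalings that moved all genes alike, in T>C reads at 48 h in dKO with T>C scaling (0.03) and between dKO and DPY30mAID with total-read scaling (−1.43, where the median of all genes went from −0.01 to −1.59).

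Member calls lower in T>C reads, over all times, numbered 1 in DPY30mAID (2 by DESeq2, 0 with a log2 fold change beyond 1, 0 to 2 leaving out a replicate), 3 in RBBP5FKBP (5 by DESeq2, 0 with T>C scaling, 1 to 2 leaving out a replicate) and 5 in dKO (3 by DESeq2, 1 with a minimum mean of 30 reads, 0 with T>C scaling, 3 to 5). In total reads they numbered 5 in DPY30mAID (0 beyond 1, 2 to 3 leaving out a replicate) and 0 in dKO (0 to 1). Calls higher in total reads numbered 0 in RBBP5FKBP (1 without a filter, 1 with 2 groups only, 0 to 1) and 0 in dKO (2 without TMM, 1 without a filter).

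Relatives lower in dKO, counting Kdm2b although its call carries no weight (it passed the filter only through the groups where it was higher), numbered 4 against DPY30mAID (0 with the Quant-seq control, 2 to 4 leaving out a replicate), 4 against RBBP5FKBP (2 to 4), and 1 in T>C reads (2 with a minimum mean of 30, 3 with total-read scaling, 2 with 2 groups only, 2 with the mean of 0 and 2 h, 0 to 2). RBBP5FKBP against DPY30mAID gave 0 (1 without a filter). Over RA times, counting all members again, 9 member calls were lower (7 by DESeq2, 4 beyond 1, 7 to 10) and 2 higher (1 with the interval of most reads, 0 beyond 1, 1 to 3). For all members, auxin against DMSO gave 1 call lower (0 by DESeq2, 0 to 1) and 2 higher (5 without TMM, 1 with the interval of most reads, 1 without multimapped reads, 0 beyond 1, 1 to 3). Day 6 against day 4 gave 0 member calls lower (1 without a filter, 0 to 1) and 1 higher (0 with 2 groups only, 0 beyond 1, 0 to 1). By interval, 47 were called (30 beyond 1), and leaving out replicates was not run for intervals.

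With the replicate block, in which numbers pair no samples, 45 intervals were called and each count of calls by gene fixed in the design was as without it. Scaling moved the median of all genes by over 0.1: T>C scaling took it from −0.71 to −0.09 at 8 h in DPY30mAID, from −0.91 to −0.20 at 24 h in RBBP5FKBP and from −1.29 to −0.11 at 48 h in dKO, and dropping TMM took it from 0.04 to 0.21 at RA day 4. Depth limits Kdm1b (14 to 35 reads per DPY30mAID library at 0 h) and Kdm2b (0 to 11 reads at 0 h), for which moderate differences were not detectable.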

Other observations

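Over the 11 Quant-seq group means, the genes whose log2 CPM most resembled each member among 11415 genes were Pla2g7, Col11a1 and Limch1 for Kdm5a (Pearson r 0.986, 0.982 and 0.982), Nol6, Sorl1 and Zfp518b for Kdm5b (0.923, 0.923 and 0.907), and Pik3r4, Dnaja2 and Fbxo45 for Kdm5c (0.989, 0.981 and 0.978). For Kdm1a they were Cox4i2, Dnajc28 and Pdp1 (0.923, 0.912 and 0.909), for Kdm1b Rtf2, Fancg and Rab8b (0.875, 0.868 and 0.866), and for Kdm2a Arhgap35, Golga2 and Zfyve26 (0.989, 0.974 and 0.973). These are the highest of many values over 11 points that share one time course, and they are a description with no test. Among the members, Kdm5c and Kdm2a had r = 0.84, Kdm5a and Kdm2a 0.76, Kdm5b and Kdm5c 0.58, and Kdm5a and Kdm5b 0.06.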
